A study of Homo sapiens with 4 samples.

Results

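Interferon-stimulated and innate sensing genes were followed in cells of the established neuroblastoma line SK-N-BE(2), which carries amplified MYCN. The 33 genes were chosen by symbol from a list of sensors, interferon transcription factors and antiviral effectors. Each symbol matched 1 of the 64252 Ensembl gene IDs in the count table. RNA was sequenced from cells transfected with a scramble hairpin (shScb) or with a hairpin against TTC8 (shTTC8, TTC8 knockdown), with 2 libraries in each group. Both groups therefore carried a hairpin, and untransfected or interferon-treated cells are not among these samples. The labels give no hairpin sequence and no time after transfection, so effects of losing TTC8 and off-target effects of a hairpin cannot be told apart. TTC8, a subunit of the ciliary BBSome, stood at 196 and 191 CPM (counts scaled to each library's total) in the shScb libraries and at 29.1 and 30.6 CPM in the shTTC8 libraries.

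Cells detect viral or misplaced nucleic acid with cytosolic sensors. RIG-I (RIGI), MDA5 (IFIH1) and LGP2 (DHX58) bind double-stranded or 5′-triphosphate RNA. RIG-I and MDA5 signal through MAVS, and cGAS (CGAS) binds DNA and signals through STING1. Both routes lead through the kinase TBK1 to the transcription factors IRF3 and IRF7 and to type I interferon genes. Secreted interferon acts on IFNAR1 and IFNAR2, and a STAT complex that holds STAT2 and IRF9 then binds interferon-stimulated response elements (ISREs) in the promoters of antiviral genes.

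Library totals ran from 38284663 to 55331449 counts, and the shTTC8 libraries were the shallower pair. Of the 33 members, 32 had a count in some library and 25 had one in every library. After the low-count filter 24 members were tested, and 9 were not. edgeR's quasi-likelihood test with Benjamini-Hochberg adjustment at 0.05 called 5 of the 24 tested members. ISG15 and IRF3 were higher in shTTC8, and OAS1, BST2 and EIF2AK2 were lower. ISG15 reached the filter's level in 1 shScb and 2 shTTC8 libraries, so its call was possible only through its level in shTTC8. The same test called 31.9% of all 19610 genes tested, 15.2% as higher and 16.7% as lower, and the called share among members was 20.8%. The difference between these shares was not tested. It was near 0 without shTTC8 replicate 1 (20% of members and 20.3% of all genes) and with no low-count filter (15.6% and 15.4%). The median log2 fold change of the tested members was -0.06, beside 0.004 over all tested genes. Whether a group's libraries come from different cultures is not in the labels, and the p-values rest on the spread between these libraries alone, which may be technical.

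The promoters of several members hold the core letters of the ISRE, and stretches around them are shown for called, tested and nearly silent members. Promoter sequences of 23 of the 33 members were matched in RefSeq (GRCh38.p14), each from 250 bases before to 50 bases after the start site. The core GAAANNGAAA was searched on both strands. It was present in 15 of the 23 member promoters (65.2%), in 25 of 77 promoters of other genes of the pathway (32.5%) and in 3.65% of 27305 promoters. Capitals mark the core on either strand, and each line reads 5′ to 3′ in the direction of the gene.
ISG15 (called higher; chr1:1013369-1013414, plus strand): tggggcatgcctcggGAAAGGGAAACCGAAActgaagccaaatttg
BST2 (called lower; chr19:17405730-17405775, minus strand): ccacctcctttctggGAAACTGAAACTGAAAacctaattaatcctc
EIF2AK2 (called lower; chr2:37156962-37157001, minus strand): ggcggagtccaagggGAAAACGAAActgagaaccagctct
IFI6 (tested, not called; chr1:27672261-27672363, minus strand): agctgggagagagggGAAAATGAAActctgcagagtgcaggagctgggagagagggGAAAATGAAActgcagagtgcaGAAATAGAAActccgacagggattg
IFIT1 (tested, not called; chr10:89392492-89392544, plus strand): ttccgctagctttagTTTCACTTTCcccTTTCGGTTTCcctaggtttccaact
MX1 (too low to test; chr21:41420554-41420593, plus strand): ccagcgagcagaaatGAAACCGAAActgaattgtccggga
IFI44 (too low to test; chr1:78649756-78649795, plus strand): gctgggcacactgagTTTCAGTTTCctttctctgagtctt
In ISG15 and in BST2 a pair of overlapping cores forms 1 run. The core was present in the promoters of both higher and lower members. It was found in 3 of 4 promoters of called members, in 7 of 14 of tested members that were not called and in 5 of 5 of members too low to test.

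OAS1 had the largest fall among the called members, and its whole promoter window is shown because it holds no GAAANNGAAA core. Capitals mark 2 other matches: TTCNNNGAA, the core of the gamma-activated site, which starts 168 bases before the start site, and GAAANGAAA, with 1 base fewer between its GAAA parts, which starts 17 bases before it. The second motif was chosen after this sequence had been read.
OAS1 (called lower; chr12:112906712-112907011, plus strand): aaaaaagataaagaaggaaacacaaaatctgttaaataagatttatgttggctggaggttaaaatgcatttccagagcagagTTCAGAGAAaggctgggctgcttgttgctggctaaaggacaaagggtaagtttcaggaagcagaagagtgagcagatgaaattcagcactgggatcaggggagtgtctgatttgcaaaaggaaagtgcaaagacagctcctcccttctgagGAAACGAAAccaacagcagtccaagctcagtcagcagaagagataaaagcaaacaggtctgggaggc
On both strands, GAAANGAAA was found in 7 of the 23 member promoters (30.4%) and in 3.26% of all promoters searched. The palindromic TTCNNNGAA was found in 6 of the 23 (26.1%) and in 7.94% of all. These matches are letters in a window, and binding was not measured. Absence of the exact GAAANNGAAA spelling does not show that a promoter, such as that of OAS1, lacks a response element.

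The members differed widely in level. Per kilobase of annotated exon, IFI6, which encodes a mitochondrial and endoplasmic reticulum protein, had the highest mean of the tested members at 14.1 CPM per kilobase, with 13.3 in its lowest and 14.4 in its highest library. MAVS followed at 10.6, with libraries from 10.1 to 11.0, and did not overlap IFI6. EIF2AK2 (8.57, from 7.58 to 10.2) and IFIT5 (8.55, from 7.81 to 9.61) overlapped each other. BST2 stood at 4.99, OAS3 at 3.60, STAT2 at 3.11 and IRF3 at 2.99 CPM per kilobase. The other 16 tested members were at 1.53 CPM per kilobase or less, down to 0.0527 for RSAD2 and 0.0458 for CGAS. The median was 0.556 over the 24 tested members and 2.99 over the 18331 tested genes with an annotated length. The order of members depends on this length, which was 865 bases for IFI6 and 11771 for MAVS. Without it, MAVS (mean 128.5 CPM in shScb, 120 in shTTC8) stood above IFI6 (11.93 and 12.45).

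**Figure D1:**
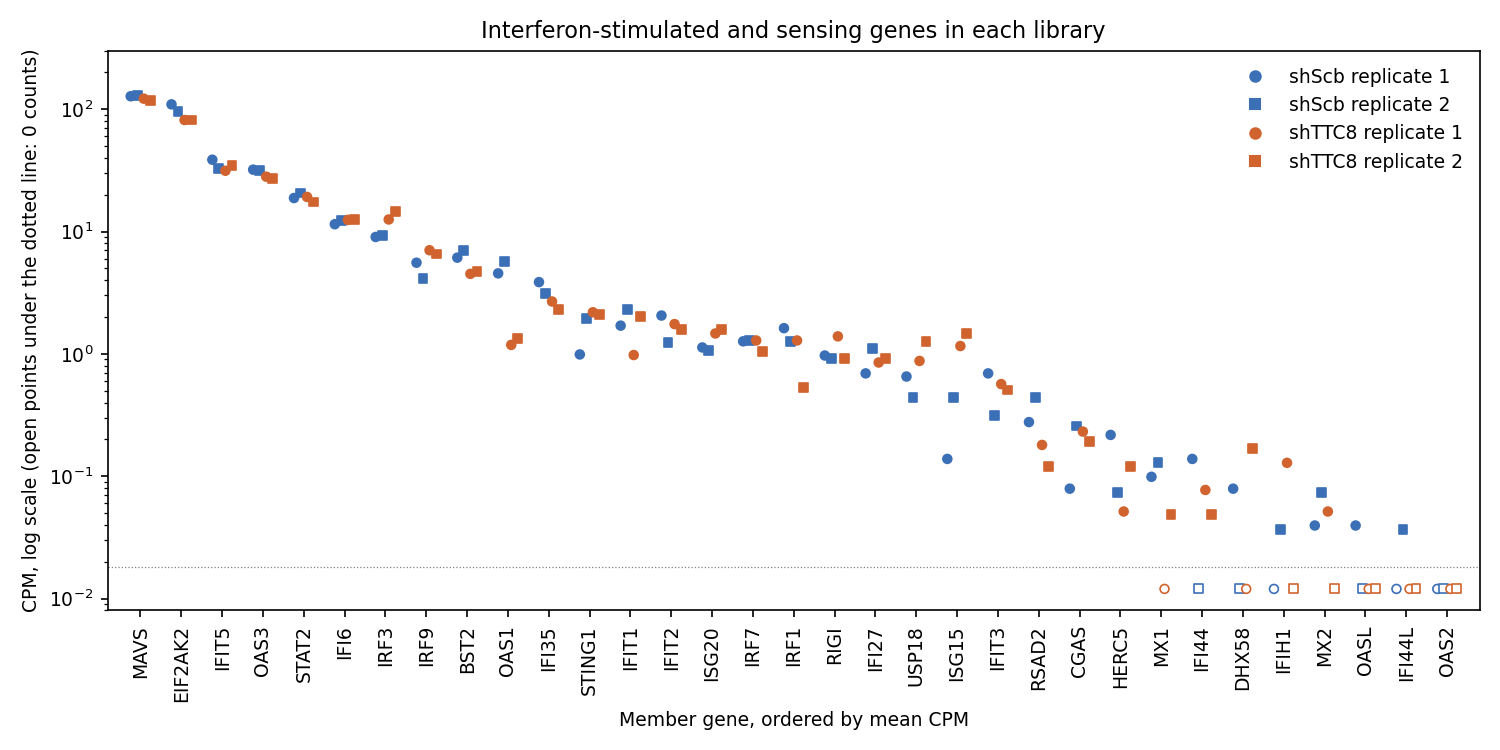
CPM of all 33 members in the 4 libraries on a log scale, ordered by mean; blue marks shScb, orange shTTC8, circles replicate 1, squares replicate 2, and open points under the dotted line stand for 0 counts. MAVS and EIF2AK2 lie near 100 CPM, most members lie between 0.1 and 10 CPM, and OAS1 and ISG15 are the members whose groups stand farthest apart.

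The 9 members too low to test were IFI44, IFI44L, IFIH1, DHX58, OAS2, OASL, MX1, MX2 and HERC5. OAS2 had 0 counts in all 4 libraries, which allows up to 0.0593 and 0.0552 CPM in the shScb libraries and up to 0.0772 and 0.0725 CPM in the shTTC8 libraries (3 counts per library, for counting error only). MX1, a GTPase that blocks incoming viral nucleocapsids, had 5 and 7 counts in shScb and 0 and 2 in shTTC8. Its relative MX2 had 2 and 4 counts in shScb and 2 and 0 in shTTC8. IFIH1, the sensor of long double-stranded RNA, had 0 and 2 counts in shScb and 5 and 0 in shTTC8. DHX58 had 4 and 0 counts in shScb and 0 and 7 in shTTC8. HERC5 and IFI44 had at most 11 and 7 counts in a library. With no low-count filter, none of the 8 that had a count passed (edgeR adjusted p from 0.437 to 0.956), and differences between the groups were not detectable at this depth.

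Among sensors and adaptors, none of the 4 tested members was called (edgeR, DESeq2 and limma-voom each called 0, and 0 had an unadjusted edgeR p under 0.05). MAVS, the mitochondrial adaptor of the RNA sensors, had 127 and 130 CPM in shScb, against 122 and 118 CPM in shTTC8. The shTTC8 libraries lay lower without overlap, but the log2 fold change was only -0.10 (SE 0.06, edgeR adjusted p = 0.233). STING1, the adaptor of the DNA sensor, had 0.989 and 1.95 CPM in shScb, against 2.19 and 2.10 CPM in shTTC8. Its shScb libraries differed from each other more than the second of them differed from shTTC8, and its log2 fold change was 0.54 (SE 0.31, edgeR adjusted p = 0.221). Without shScb replicate 2 it was called, at 1.11 (edgeR adjusted p = 0.0128). RIGI stood at 0.969 and 0.920 CPM in shScb, against 1.39 and 0.918 CPM in shTTC8, and CGAS at 0.0791 and 0.258 CPM in shScb, against 0.232 and 0.193 CPM in shTTC8. The groups overlapped for both.

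Of the transcription factors, 1 of 5 tested was called. IRF3, which the sensor pathways activate by phosphorylation, had 9.02 and 9.33 CPM in shScb, against 12.5 and 14.5 CPM in shTTC8. Both shTTC8 libraries lay above both shScb libraries. IRF3 rose by 0.56 on the log2 scale (SE 0.12, edgeR adjusted p = 0.00263) and was called in all 13 alternatives. BCL2L12 overlaps 734 exonic positions of IRF3 (19.4% of its exons) on the opposite strand and had 131% of its counts. In the shScb libraries BCL2L12 itself had 15.3 ± 0.0496 CPM, against 13.5 ± 0.449 CPM in the shTTC8 libraries (SD, n = 2), and did not pass the test, at -0.18 on the log2 scale. IRF9, the DNA-binding partner of STAT2, had 5.56 and 4.12 CPM in shScb, against 7.03 and 6.55 CPM in shTTC8. Its log2 fold change of 0.49 (SE 0.18) missed the threshold (edgeR adjusted p = 0.0512) and passed it in 5 of 13 alternatives, among them the fit without shScb replicate 1 (log2 fold change 0.72, edgeR adjusted p = 0.00595). IRF9 shares 48.4% of its exonic positions with ENSG00000259529, a same-strand gene with 237% of its counts that rose by 0.59 on the log2 scale. The values of IRF9 are therefore uncertain. STAT2 had 18.8 and 20.6 CPM in shScb, against 19.2 and 17.4 CPM in shTTC8, and its groups overlapped. IRF7, the factor that amplifies interferon-alpha transcription, stood at 1.27 and 1.29 CPM in shScb, against 1.29 and 1.04 CPM in shTTC8. IRF1 had 1.62 and 1.27 CPM in shScb, against 1.29 and 0.532 CPM in shTTC8. It did not pass (log2 fold change -0.67, SE 0.39, edgeR adjusted p = 0.222), but was without shTTC8 replicate 1 (log2 fold change -1.44, edgeR adjusted p = 0.0219). IRF1 shares 22% of its exonic positions with IRF1-AS1 on the opposite strand, which had 54.7% of its counts.

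OAS1 had the smallest p of the members. The OAS enzymes make 2′-5′-linked oligoadenylates when they bind double-stranded RNA. OAS1 (ENSG00000089127, chromosome 12, 112906777 to 112933222, GRCh38, plus strand) had 230 and 308 counts in shScb and 46 and 55 counts in shTTC8. On the CPM scale it stood at 4.55 and 5.67 in shScb and at 1.18 and 1.33 in shTTC8. The groups lay far apart, and OAS1 fell by 2.02 on the log2 scale (SE 0.23, edgeR adjusted p = 9.72e-06), to 0.246 of the shScb level. It was lower and called in all 13 alternative fits, with log2 fold changes from -2.17 to -1.85 when 1 library was left out.

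OAS1 lies beside OAS3 and OAS2 on chromosome 12. OAS3 starts 5130 bases after OAS1 ends. It had 32.0 and 31.6 CPM in shScb, against 28.1 and 27.3 CPM in shTTC8. These libraries did not overlap, but the log2 fold change of -0.20 (SE 0.08) did not pass the threshold (edgeR adjusted p = 0.0832). OAS2, the next gene, had 0 counts, and OASL, elsewhere on the chromosome, had 2 counts in 1 library. The difference between the changes of OAS1 and OAS3 was not tested. EIF2AK2 encodes PKR, the kinase that double-stranded RNA activates to halt translation. It had 109 and 96.2 CPM in shScb, against 81.5 CPM in each shTTC8 library. It fell by 0.34 on the log2 scale (SE 0.07, edgeR adjusted p = 0.00194), and was called in all 13 alternatives. EIF2AK2 shares 35 exonic positions (0.325% of its exons) with GPATCH11, which had 27.8% of its counts and fell by 0.53 on the log2 scale.

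**Figure D2:**
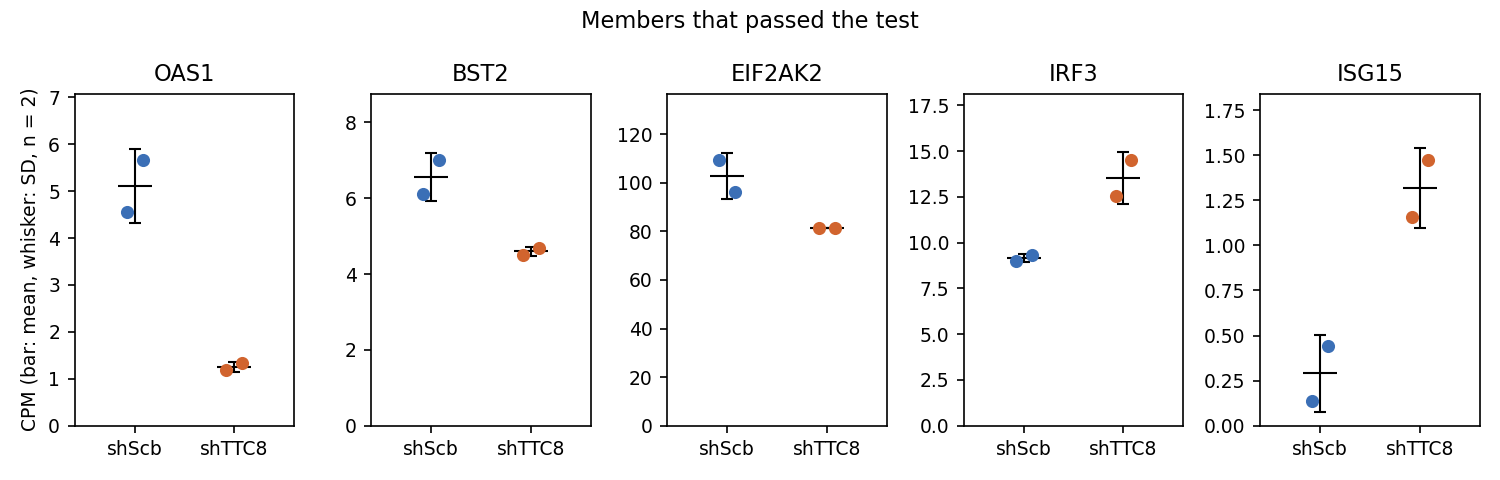
CPM of the 5 called members, each panel with its own linear axis from 0; points are libraries, bars are group means and whiskers are SDs (n = 2). OAS1, BST2 and EIF2AK2 are lower in shTTC8 and IRF3 and ISG15 are higher, with no overlap between the groups in any panel. These members were picked by the test, and 65.5% of all tested genes also had no overlap. ISG15 was tested only because of its level in shTTC8.

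The IFIT genes encode a family of antiviral proteins, some of which bind viral RNA 5′ ends, and lie side by side on chromosome 10. None of the 4 was called (edgeR, DESeq2 and limma-voom each called 0, and 0 had an unadjusted edgeR p under 0.05), and the groups overlapped for all 4. IFIT5, by far the most abundant, had 38.6 and 32.5 CPM in shScb, against 31.4 and 34.8 CPM in shTTC8. IFIT1 had 1.70 and 2.32 CPM in shScb, against 0.978 and 2.00 CPM in shTTC8. The log2 fold change of IFIT5 was -0.10 (SE 0.10), and that of IFIT1 was -0.43 (SE 0.33). Each passed in 1 fit with a library left out, IFIT1 without shTTC8 replicate 2 (log2 fold change -1.04, edgeR adjusted p = 0.0495) and IFIT5 without shScb replicate 2 (log2 fold change -0.22, edgeR adjusted p = 0.0487). IFIT2 stood at 2.06 and 1.23 CPM in shScb, against 1.75 and 1.57 CPM in shTTC8, and IFIT3 at 0.692 and 0.313 CPM in shScb, against 0.566 and 0.507 CPM in shTTC8. IFIT2 shares 1.58% of its exonic positions with LIPA and 8.68% with ENSG00000232110, which had 5703% and 77% of its counts, so its values are uncertain.

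Among the other direct effectors, BST2 was called. BST2 encodes tetherin, which holds budding virions at the cell surface. It had 6.11 and 7.01 CPM in shScb, against 4.51 and 4.69 CPM in shTTC8, and fell by 0.51 on the log2 scale (SE 0.17, edgeR adjusted p = 0.0288). The call was lost in 4 of 13 alternatives: DESeq2 (adjusted p = 0.0762) and the edgeR fits without shScb replicate 2 (adjusted p = 0.158), without shTTC8 replicate 1 (adjusted p = 0.128) and without shTTC8 replicate 2 (adjusted p = 0.0900). RSAD2, which encodes viperin, a radical enzyme that makes a chain-terminating nucleotide, had 14 and 24 counts in shScb and 7 and 5 counts in shTTC8. It passed the filter only through its shScb libraries and did not pass (log2 fold change -1.25, SE 0.65, edgeR adjusted p = 0.166). ISG20, an exonuclease, had 1.13 and 1.07 CPM in shScb, against 1.47 and 1.57 CPM in shTTC8. Its libraries did not overlap, and it did not pass (log2 fold change 0.47, SE 0.30, edgeR adjusted p = 0.261).

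ISG15 moved opposite to OAS1 and BST2. ISG15 (ENSG00000187608, chromosome 1, GRCh38) encodes a ubiquitin-like protein that is joined to other proteins by a chain ending in the ligase HERC5 and removed by USP18. It had 7 and 24 counts in shScb and 45 and 61 counts in shTTC8. On the CPM scale these were 0.138 and 0.442 in shScb and 1.16 and 1.47 in shTTC8. Both shTTC8 libraries lay above both shScb libraries, although the shScb libraries themselves differed. ISG15 rose by 2.16 on the log2 scale (SE 0.48, edgeR adjusted p = 0.00326) and was called in all 13 alternatives. It reached the level of the low-count filter in 1 shScb and 2 shTTC8 libraries, so it was tested only because of its level in shTTC8. The stricter filter of 1 CPM in 2 libraries was likewise met only in shTTC8. Because the shScb counts were few, the size of the rise is loose: it was 3.22 without shScb replicate 2 and 1.57 at the lowest in the other fits that left out a library. USP18 had 0.653 and 0.442 CPM in shScb, against 0.875 and 1.26 CPM in shTTC8. It was also higher without overlap, but missed the threshold (log2 fold change 0.96, SE 0.40, edgeR adjusted p = 0.0804). USP18 has a near-identical copy elsewhere on chromosome 22, so its values are uncertain. HERC5 had 11 and 4 counts in shScb and 2 and 5 in shTTC8 and was not tested.

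The IFI genes are named for their induction by interferon. None of the 3 tested was called by edgeR, DESeq2 or limma-voom, and 1, IFI35, had an unadjusted edgeR p under 0.05. IFI6 had 11.5 and 12.4 CPM in shScb, against 12.4 and 12.5 CPM in shTTC8. Its log2 fold change was 0.06 (SE 0.11). IFI35 had 3.86 and 3.11 CPM in shScb, against 2.68 and 2.32 CPM in shTTC8, lower without overlap (log2 fold change -0.48, SE 0.22, edgeR adjusted p = 0.122). IFI27 stood at 0.692 and 1.10 CPM in shScb, against 0.850 and 0.918 CPM in shTTC8, and its groups overlapped. The neighbours IFI44 and IFI44L had at most 7 counts in any library.

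**Figure D3:**
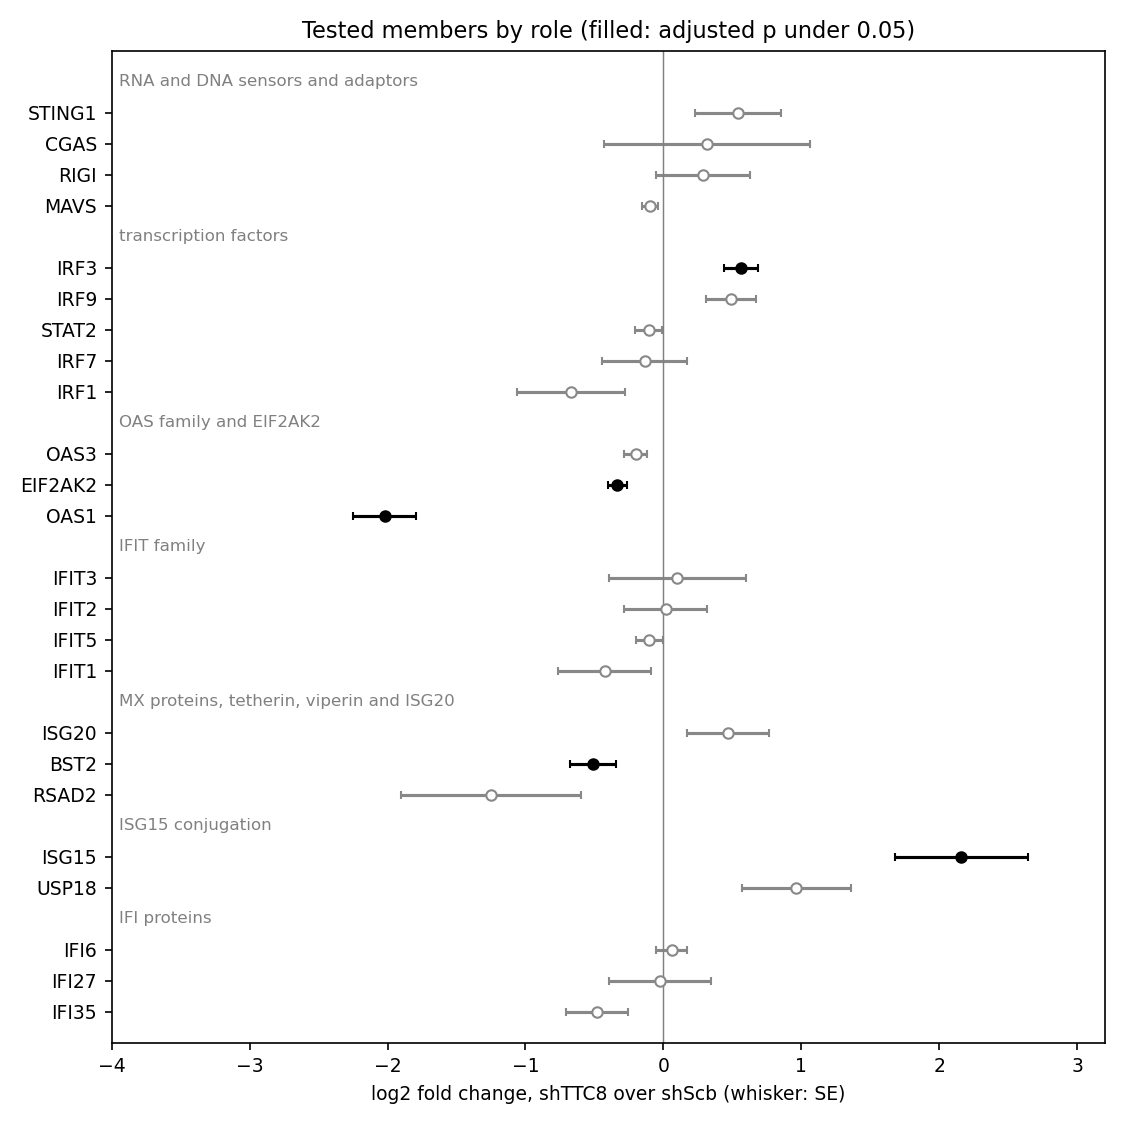
Log2 fold changes of shTTC8 over shScb for the 24 tested members, grouped by role, with SEs as whiskers; filled points passed edgeR's test. OAS1 at -2.02 and ISG15 at 2.16 lie at the ends, most other members lie within 1 of 0, and wide whiskers mark members with few counts.

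Precision followed abundance. Of the tested members 6 had a mean under 1 CPM, 11 between 1 and 10 CPM and 7 at least 10 CPM, with median SEs of 0.49, 0.30 and 0.10 on the log2 scale. In these bands 1, 2 and 2 members were called, and the 1 under 1 CPM was ISG15, tested only because of its shTTC8 level. Of all genes tested in the same bands, 8.08%, 24.2% and 45.3% were called. Of the 24 tested members, 7 were higher and 7 lower in shTTC8 without overlap between the libraries, and 10 overlapped. Over all tested genes 32.5% were higher and 32.9% lower without overlap (65.5% together). The summed level of the 33 members was 380 and 366 CPM in shScb, against 337 and 336 CPM in shTTC8. MAVS and EIF2AK2 make up more than any other members of that sum.

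The rest of the pathway was read from 95 further genes, of which 67 were tested. Of these 14 were lower and 5 higher (28.4% called, against 31.9% of all genes), with a median log2 fold change of -0.03. With library size alone as the scaling, 10 were lower and 8 higher. Without shTTC8 replicate 1 the counts were 8 lower and 2 higher, and without shTTC8 replicate 2 they were 8 lower and 3 higher. All 9 interferon ligand genes in the list (IFNA1, IFNA2, IFNB1, IFNE, IFNK, IFNG, IFNL1, IFNL2 and IFNL3) had 0 counts in every library, with the same limits as OAS2. Transcripts of the inflammatory chemokines CXCL10, CXCL11 and CCL5 were also at 0 counts in all 4 libraries; these were named after their values were seen.

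Of 10 genes of the receptors and the JAK-STAT chain, 2 were lower and none higher by edgeR (20% called, against 31.9% of all genes). An unadjusted edgeR p under 0.05 was found for 4, while DESeq2 and limma-voom called 1 each. The receptor chain gene IFNAR1 stood at 22.3 and 22.0 CPM in shScb, against 19.9 and 19.1 CPM in shTTC8 and did not pass (log2 fold change -0.19, SE 0.09, edgeR adjusted p = 0.146). IFNAR2 was at 10.2 and 9.90 CPM in shScb, against 10.3 and 12.2 CPM in shTTC8. The kinase gene JAK1 had 51.8 ± 4.81 CPM in the shScb libraries, against 51.0 ± 0.406 CPM after the TTC8 hairpin (SD, n = 2). TYK2 was at 57.7 ± 3.54 and 65.9 ± 0.814 CPM (SD, n = 2) and missed the threshold (log2 fold change 0.19, edgeR adjusted p = 0.0531). It passed without shScb replicate 2 (edgeR adjusted p = 0.00545), with library size alone (edgeR adjusted p = 0.0204) and with a stricter filter (edgeR adjusted p = 0.0387).

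Among 13 tested signal relay genes, edgeR called 4 lower and 3 higher (53.8%, against 31.9% of all genes). Most of them had a mean of at least 10 CPM, a level at which 45.3% of all genes were called. DESeq2 called 4 of the 13 and limma-voom 5, where they called 27.65% and 29.54% of all genes. The difference between these shares was not tested. UNC93B1, which brings Toll-like receptors to endosomes, fell by 0.77 on the log2 scale (SE 0.09). TICAM1, the adaptor of TLR3, fell by 0.65 (SE 0.12) and the ubiquitin ligase gene TRAF6 by 0.51 (SE 0.09). TLR3 itself had at most 10 counts in a library. TRIM25, a ubiquitin ligase of the RIG-I route, fell by 0.28 (SE 0.07), a call lost without shTTC8 replicate 1 (edgeR adjusted p = 0.148). IRF2 rose by 0.35 (SE 0.12), and its call was lost in 5 of the alternatives, among them the fit without shTTC8 replicate 1 (log2 fold change 0.19, edgeR adjusted p = 0.422). TBK1 had 25.6 and 21.4 CPM in shScb, against 23.8 and 23.6 CPM in shTTC8, with overlapping groups. Of 11 negative regulators 3 were lower and 1 higher by edgeR (36.4%), while DESeq2 called 1 and limma-voom 2 of them. The higher one was NLRX1, a mitochondrial protein that restrains MAVS signalling, which rose by 0.41 (SE 0.08).

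Of 33 tested further interferon-induced genes, 5 were lower and 1 higher (18.2% called, against 31.9% of all genes). IFI16, a nuclear DNA sensor, had 153 and 143 CPM in shScb, against 79.2 and 84.6 CPM in shTTC8. Its libraries lay far apart, and it fell by 0.85 on the log2 scale (SE 0.06, edgeR adjusted p = 1.93e-07). The helicase gene HELZ2 fell by 0.49 (SE 0.09). PLSCR1, a phospholipid scramblase, fell by 0.70 (SE 0.19), but not past the threshold without shTTC8 replicate 2 (edgeR adjusted p = 0.139). UBE2L6, the enzyme that passes ISG15 to its ligases, had 39.0 and 38.2 CPM in shScb, against 52.9 and 50.8 CPM in shTTC8. It rose by 0.42 on the log2 scale (SE 0.07, edgeR adjusted p = 5.3e-04).

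**Figure D4:**
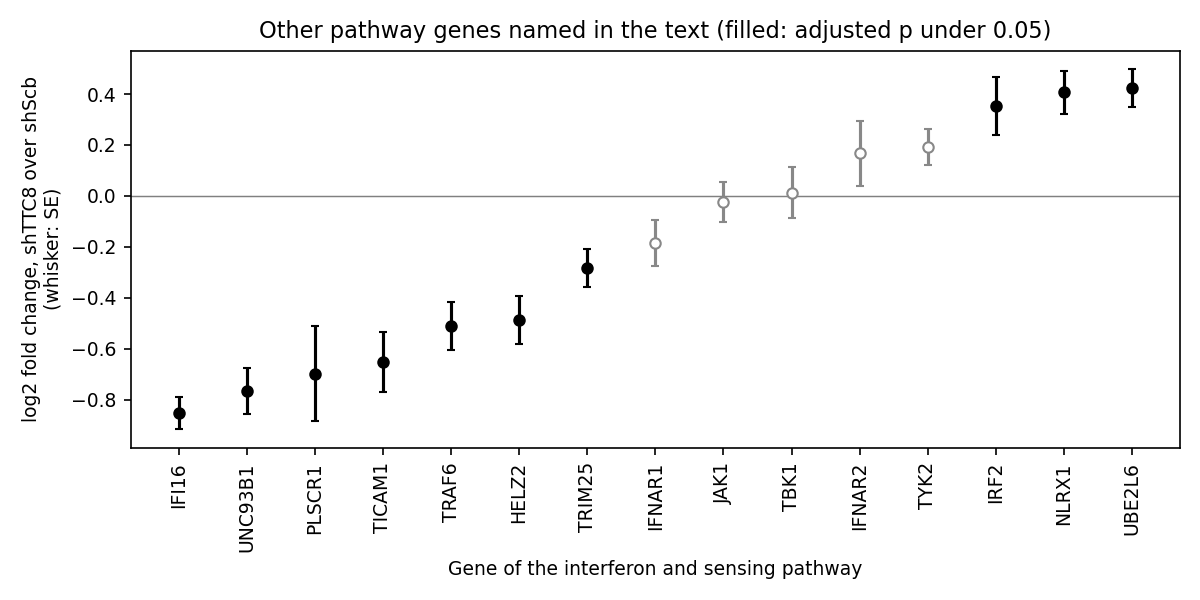
Log2 fold changes of shTTC8 over shScb, with SEs as whiskers, for the other pathway genes named in the text; filled points passed edgeR's test. IFI16 at -0.85 is the lowest and UBE2L6 at 0.42 the highest, while JAK1 and TBK1 lie near 0.

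Markers of the line and of other cell types were read in the same libraries. For comparison, 16.7% of all tested genes were called lower and 15.2% higher. At a mean of at least 10 CPM, 45.3% were called in either direction. The 8 sympathetic neuroblast markers were abundant in both groups and summed to 8658 and 8970 CPM in shScb, against 6201 and 6380 CPM in shTTC8. Of these 6 were lower and 1, ISL1, was higher. MYCN, the most abundant, had 5738 CPM in shScb, against 3766 CPM in shTTC8. The 9 fibroblast and endothelial markers summed to 270 to 283 CPM in shScb and 73.9 to 75.2 CPM in shTTC8. All 6 of those tested were lower. LUM, the most abundant, had 185 CPM in shScb against 29.9 CPM in shTTC8, and PECAM1 was at 0. The 12 leukocyte markers summed to 16.5 to 17.1 CPM in shScb and 4.57 to 5.41 CPM in shTTC8. PTPRC made up most of that sum (15.4 and 3.27 CPM) and was the 1 called of 3 tested, while CD3E, CD3D, MS4A1, ITGAM and TYROBP were at 0. The 7 Schwann cell and glia markers summed to 37.1 to 38.7 CPM in shScb and 14.3 to 15.8 CPM in shTTC8, with NGFR the 1 called of 5 tested and SOX10 at 0. These sums were lower in the shTTC8 libraries, where OAS1, BST2, EIF2AK2 and IFI16 were lower and ISG15, IRF3, UBE2L6 and NLRX1 were higher. Their part in those results was not tested. All libraries came from the same established line, and these sums are not counts of other cell types. In bulk RNA, fewer cells with a transcript and less of it per cell cannot be told apart.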

How the data were processed

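The authors deposited 1 table of raw counts per Ensembl gene, 1 column per sample, without normalization. Per the labels' protocols, TRIzol was used for RNA extraction and an Illumina TruSeq kit for the libraries. HISAT2 2.2.0 and hg38 are named in the submitters' processing notes. Which counter, strand setting and annotation release were used is not given in the sources used here. All 164 listed symbols matched 1 ID each. Exons came from GENCODE 29 (GRCh38).

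The tests were run on these counts with edgeR 4.0.16 in R 4.3.3 (filterByExpr, TMM scaling, robust quasi-likelihood F test, two-sided, Benjamini-Hochberg adjustment over 19610 tested genes at 0.05) after a check on simulated data. The filter asked for about 0.217 CPM in 2 libraries. Each SE is the log2 fold change divided by the root of F. CPM used TMM-scaled totals, and levels per kilobase used all annotated exons of a gene. As alternatives, scaling was by RLE or library size alone, the filter was dropped or raised to 1 CPM in 2 libraries, and the test was DESeq2 1.42.0, limma-voom (limma 3.58.1) or a non-robust fit. Counts were also thinned to equal depth, the replicate block was added, and each library was left out.

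All members were named. Other pathway genes were named if called, up to 12 by smallest p, with 6 genes of the type I interferon chain. Some genes that this rule covers are not reported here. Members and lists were chosen with earlier results of these data known.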

Additional observations from a re-analysis of the deposited data

How the results depend on the processing

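In the alternatives that kept every library, 4 to 6 members were called, of 18 to 32 tested. The called share of members ran from 15.6% with no low-count filter (15.4% of all genes) to 33.3% with the 1 CPM filter (41.0% of all genes). The direction of each of the 5 called members held in every alternative. The pathway count of 19 was 11 with DESeq2, 12 with no low-count filter, 12 with a non-robust fit and 10 to 21 when 1 library was left out. With the replicate number as a block, 6 members and 16 pathway genes were called. The numbers do not pair the samples by the labels, and deviations of same-numbered libraries correlated at 0.0317 across genes. The cause of these differences was not tested. Among the tested members and the pathway genes named by rule, direction turned only in genes that were not called; the other 7 called pathway genes were not followed singly. IFI27 stood at 0.0165 with library size alone, 0.0095 with limma-voom, 0.0024 with the replicate block and -0.32 to 0.35 with 1 library left out. IFIT2 stood at -0.0114 with no filter, -0.0295 after thinning and -0.31 to 0.43 with 1 library left out. JAK1 stood at 0.0177 with library size alone and TBK1 at -0.0139 with no filter. With 1 library left out the ranges were -0.37 to 0.77 for IFIT3, -0.22 to 0.0242 for IFIT5, -0.0428 to 0.56 for RIGI, -0.30 to 0.0144 for IRF7, -0.28 to 0.45 for CGAS, -0.12 to 0.0715 for JAK1 and -0.11 to 0.14 for TBK1. Where a library was left out, the lone library of its group was assumed to vary like the other group. Few counts limit members under 1 CPM, whose SEs reached 0.75.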
